A study of Mus musculus with 19 samples.

Results

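Chromatin accessibility was examined at the potassium channel genes of mouse neural progenitors differentiating into astrocytes. The genes were the 93 protein-coding genes of RefSeq on GRCm38 whose symbol starts with Kcn, leaving out Kcnj10, of 21896 protein-coding genes in all. An ATAC-seq peak was counted for a gene where its centre lay in the gene body or within 5 kb of either end. By this rule 527 of the 90154 peaks of the series (0.585%) belonged to 86 of the 93 genes, and they are called Kcn peaks here. The other 7 genes, Kcnj1, Kcne3, Kcnu1, Kcns3, Kcnk6, Kcnrg and Kcnv2, had no peak in any group. A single peak lay in the windows of both Kcnip1 and Kcnmb1, and 54 Kcn peaks also lay in the window of another gene.

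ATAC-seq cuts accessible DNA with a transposase, and the reads over a peak measure how open it is. Neural stem cells were taken from the ventricular zone of wild-type C57BL/6J embryos at embryonic day 14 and grown as free-floating neurospheres (NSPs) in medium with B27 and EGF. They were then differentiated in DMEM with fetal bovine serum on plates coated with poly-L-ornithine, and some cultures also received 50 ng/ml of TNF (tumour necrosis factor), a cytokine of inflammation. The 19 libraries comprised 3 of NSPs and, after differentiation without TNF, 3 for 24 h, 3 for 72 h and 4 for 1 week. Another 3 received TNF for 24 h and 3 for 72 h. NSPs were grown without serum, so differentiation time and the change of medium and surface cannot be told apart. The libraries held between 9640256 and 39349111 reads in peaks, with NSPs the deepest at 28636739 or more and 1 week library 3 the shallowest. The 10 libraries of 72 h, 72 h with TNF and 1 week share a tag in their names that the other 9 lack. Comparisons of 72 h or 1 week with NSPs or 24 h therefore cannot be told apart from a difference between tagged and untagged libraries. None of the 212 peaks that were near 0 in the tagged libraries alone was a Kcn peak. With Kcn peaks at 0.585% of the series this says little, and smaller differences between tagged and untagged libraries were not tested.

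Potassium channels let potassium ions cross the membrane and hold most cells at a negative resting potential. Voltage-gated channels open on depolarisation and end the action potentials of neurons, calcium-activated channels link membrane potential to calcium signals, and inward rectifiers and K2P (tandem pore domain) channels carry the resting conductance. Mature astrocytes are known for a high resting potassium conductance, through which they take up the potassium that neurons release. Progenitors and neurons are known for more voltage-gated channels. Silent pore subunits form no channel alone, and auxiliary subunits change the gating or the transport of the pore subunits.

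The sequences of 6 start sites are printed here because a peak named below overlaps each promoter. Many of the peaks named below lie away from start sites. They are the RefSeq promoters (GRCm38.p6) under the named peaks of Kcnab2, Kcnma1, Kcnn3, Kcnj2, Kcnk1 and Kcnj9, printed 5′ to 3′ on the strand of the gene as the 250 bases before the start, with CpG dinucleotides in capitals.
Kcnab2: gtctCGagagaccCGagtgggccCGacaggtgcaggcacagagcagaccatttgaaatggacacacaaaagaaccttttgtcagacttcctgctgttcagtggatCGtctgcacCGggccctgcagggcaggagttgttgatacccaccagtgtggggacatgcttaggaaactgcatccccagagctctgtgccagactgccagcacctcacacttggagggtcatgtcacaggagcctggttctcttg
Kcnma1: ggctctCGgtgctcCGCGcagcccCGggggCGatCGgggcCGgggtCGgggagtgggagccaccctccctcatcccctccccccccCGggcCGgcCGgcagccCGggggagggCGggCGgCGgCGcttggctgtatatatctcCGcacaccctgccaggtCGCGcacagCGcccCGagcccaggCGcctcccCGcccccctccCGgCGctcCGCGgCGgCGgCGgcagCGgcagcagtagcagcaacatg
Kcnn3: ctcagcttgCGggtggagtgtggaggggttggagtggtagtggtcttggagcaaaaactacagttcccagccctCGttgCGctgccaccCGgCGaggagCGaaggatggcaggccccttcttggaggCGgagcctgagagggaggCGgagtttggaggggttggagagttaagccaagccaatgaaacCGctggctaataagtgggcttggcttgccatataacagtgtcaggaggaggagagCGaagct
Kcnj2: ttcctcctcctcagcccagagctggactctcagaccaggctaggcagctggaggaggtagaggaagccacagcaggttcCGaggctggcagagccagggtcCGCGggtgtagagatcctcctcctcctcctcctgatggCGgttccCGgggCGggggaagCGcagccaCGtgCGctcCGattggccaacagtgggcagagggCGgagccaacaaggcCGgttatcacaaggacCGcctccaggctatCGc
Kcnk1: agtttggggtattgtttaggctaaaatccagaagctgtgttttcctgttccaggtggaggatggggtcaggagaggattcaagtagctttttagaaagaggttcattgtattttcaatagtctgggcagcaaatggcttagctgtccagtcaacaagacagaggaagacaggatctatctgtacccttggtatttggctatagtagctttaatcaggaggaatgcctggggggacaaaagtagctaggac
Kcnj9: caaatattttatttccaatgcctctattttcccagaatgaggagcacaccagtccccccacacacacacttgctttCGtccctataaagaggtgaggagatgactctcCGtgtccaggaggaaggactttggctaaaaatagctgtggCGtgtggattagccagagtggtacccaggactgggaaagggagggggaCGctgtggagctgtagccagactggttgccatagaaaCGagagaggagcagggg
These stretches lie at chr4:152452946-152453195 on the minus strand for Kcnab2 and at chr14:24004206-24004455 on the minus strand for Kcnma1. Those of Kcnn3, Kcnj2 and Kcnk1 lie on the plus strand at chr3:89519914-89520163, chr11:111065914-111066163 and chr8:125994852-125995101, and that of Kcnj9 lies on the minus strand at chr1:172329323-172329572. The Kcnma1 stretch held 31 CpG and 79.2% G and C, whereas the Kcnab2 stretch, an internal start of that gene, held 5 CpG and 56.4%. The Kcnk1 stretch held 0 CpG, that of Kcnj9 5, that of Kcnn3 10 and that of Kcnj2 14.

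Promoter windows, from 250 bases before to 50 after a start, were given for 68 of the 93 genes, 93 windows in all. A peak overlapped a window of 36 of these genes (52.9%), against 55.8% of the 17491 protein-coding genes with a window. Windows of Kcn genes with a peak had a median of 64.3% G and C and 18 CpG, and those without a peak 55.0% and 7 CpG. Over all protein-coding genes the medians were 62.0% and 22 CpG with a peak, and 49.0% and 4 CpG without. Motifs were searched on both strands of each window. TGANTCA, the site of AP-1, was in 4.3% of the Kcn windows and 7.0% of all windows. TTGGCA, the core of an NFI site, was in 11.8% and 13.1%, GGANTTTCC, the core of a kappaB site, was in 1.1% and 1.3%, and TGACGTCA, the cyclic AMP response element, was in 0 of the 93 Kcn windows and in 2.2% of all. None of these 4 motifs was in the windows of the 6 start sites shown, which says only that these letters are not there.

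Of the 527 Kcn peaks, 73 (13.9%) were gene-end peaks, centred within 1 kb of an end of a Kcn gene. Another 386 (73.2%) were interior to a gene, and 68 (12.9%) lay in the flanks. The level of a peak is given in normalised reads, the deposited value in its window of about 500 bp. The median level over all libraries was 61.3 normalised reads for interior Kcn peaks, 79.1 for flank peaks and 141 for the 38 Kcn peaks at a start site of the promoter table. Over the whole table it was 338 for the 13452 peaks within 1 kb of a gene end and 74.9 for the others. Kcnma1 had the most peaks (36), followed by Kcnd3 (31) and by Kcnab1 and Kcnip1 (22 each), all of them long genes.

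Marker lists were read by the same windows to check the labels. All 7 astrocyte genes of the list (Gfap, Aqp4 and others) and all 6 genes of NSPs and proliferation had peaks. The summed level of the latter was 10220 to 10543 normalised reads in NSPs, 6045 to 6626 at 72 h and 8512 to 8939 at 1 week. The summed astrocyte level was 12418 to 12981 in NSPs, above every library at 24 h (11505 to 12017) and 72 h (11425 to 11988). It was 11867 to 13362 at 1 week, overlapping NSPs. The summed level of the whole table was also lower at 24 h and 72 h. By the tests described below, 12 of 37 astrocyte peaks (32.4%) rose and 11 (29.7%) fell at 24 h against NSPs. At 72 h 15 (40.5%) rose and 12 (32.4%) fell, and at 1 week 18 (48.6%) and 13 (35.1%). Over all peaks 24.2% and 23.0%, 28.3% and 30.9%, and 33.7% and 33.6% rose and fell at these times. Lists of other cells moved too. The neuron list (7 of 7 genes, 56 peaks) lay at 5814 to 7237 in NSPs and 7882 to 9192 at 1 week, and the fibroblast and mural list (4 of 5 genes, 13 peaks, none at Dcn) rose from 938 to 1049 in NSPs to 1570 to 1660 at 1 week. Microglia genes had 6 peaks at 3 of 5 genes, with none at the defining genes Cx3cr1 and Itgam, and these peaks lay at 683 to 923 in NSPs and 507 to 607 at 1 week. The oligodendrocyte list (4 of 5 genes, none at Mog) lay at 3415 to 3718 in NSPs and 3616 to 3836 at 1 week. The part of other cell types in the results below was not tested, and in bulk cultures a change in the mix of cells and a change within cells cannot be told apart.

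Each comparison was tested with limma-trend over all 88919 tested peaks, 523 of them Kcn peaks, and a peak was called at a Benjamini-Hochberg adjusted p under 0.05. Changes are differences of log2(value + 1), given with their standard error (SE), and group means of normalised reads are given with their SD (n = 3, and 4 at 1 week). The 4 Kcn peaks too low to test were at Kcnh1 (2), Kcnq5 and Kcnma1. Cells were isolated from single brains, but which libraries share a brain or a culture is not given, so p-values measure the spread between these libraries, which may be technical.

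During differentiation the Kcn peaks that fell came to outnumber those that rose. At 24 h against NSPs, 104 Kcn peaks (19.9%) rose and 128 (24.5%) fell, where over all tested peaks 24.2% rose and 23.0% fell. At 72 h, 113 (21.6%) rose and 173 (33.1%) fell, against 28.3% and 30.9% of all peaks. At 1 week, 137 (26.2%) rose and 242 (46.3%) fell, against 33.7% and 33.6% of all peaks. The median change of the Kcn peaks was -0.13, -0.19 and -0.33 at the 3 times, and that of all peaks -0.07, -0.06 and 0.01. When each library was scaled to the same total instead, the median of all peaks moved to 0.11, 0.21 and -0.06 at these times. The median of the Kcn peaks was then 0.06, 0.08 and -0.40, so that its sign at 24 h and 72 h turned while it stayed below that of all peaks. The Kcn split was 127 up and 77 down at 24 h, and 144 up and 131 down at 72 h. At 1 week 249 were down and 33.2% of the calls were up. Over all peaks 26121 rose and 12375 fell at 24 h with this scaling (67.9% of calls up). At 72 h 32646 rose and 18517 fell (63.8% up), and at 1 week 27685 and 31935 (46.4% up). Kcn falls therefore outnumbered Kcn rises with both scalings at 1 week but not at 24 h and 72 h. The share of calls that were up stayed smaller for Kcn peaks than for all peaks at each time.

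The summed level of all 527 Kcn peaks was 91560 ± 1236 normalised reads in NSPs (SD, n = 3). It was 73207 ± 1643 at 24 h, 67909 ± 1338 at 72 h (both n = 3) and 78046 ± 2170 at 1 week (n = 4). No library of the later times reached the lowest NSP library, at 90487. The summed level of all peaks of the table was also lower in every untreated library at 24 h and 72 h than in NSPs. At 1 week it overlapped NSPs. The direction of the falls of the Kcn sum at 24 h and 72 h was therefore shared with the whole table. The sizes of these falls were not compared. Among the untreated groups, 44.4% of tested Kcn peaks had their highest mean in NSPs and 25% at 1 week, against 36.8% and 33.9% of all tested peaks.

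Most gene-end peaks of Kcn genes had fallen by 1 week. At 24 h, 0 of 73 rose (0 at an unadjusted p under 0.05, and 0 by edgeR and DESeq2) and 25 (34.2%) fell, against 6.27% and 39.3% of the 13342 tested gene-end peaks of the table. Without NSP library 1, 2 (2.74%) rose at 24 h, against 6.63% of all gene-end peaks. At 72 h, 2 rose and 38 (52.1%) fell, against 9.62% and 53.7%. At 1 week, 4 (5.48%) rose and 50 (68.5%) fell, against 26.5% and 27.6%, and their median change was -0.69 where that of all gene-end peaks was 0.01. Across the alternative settings and with any 1 library left out, 44 to 53 of the Kcn gene ends fell and 1 to 4 rose at 1 week, while 24.8% to 35.7% of all gene ends fell. The count at 24 h was less steady, since it dropped to 7 (9.59%) with scaling to equal totals, to 14 (19.2%) with the 2 groups fitted alone and to 13 (17.8%) without 24 h library 3. The share over all gene ends dropped too, to 17.4%, 22.1% and 25.4%. Kcn start-site peaks were lower in level (median 141) than gene-end peaks of the table (median 338), and the part of peak height in these counts was not tested. Of the 38 Kcn peaks at an annotated start site, 27 (71.1%) fell and 2 (5.26%) rose at 1 week. The share over all annotated start-site peaks was not computed, so these counts do not set Kcn start sites apart. Of the interior Kcn peaks, 106 of 382 (27.7%) rose and 175 (45.8%) fell, and of the flank peaks 27 of 68 (39.7%) rose and 17 (25%) fell. Of all peaks away from gene ends, 35% rose and 34.6% fell.

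**Figure D1:**
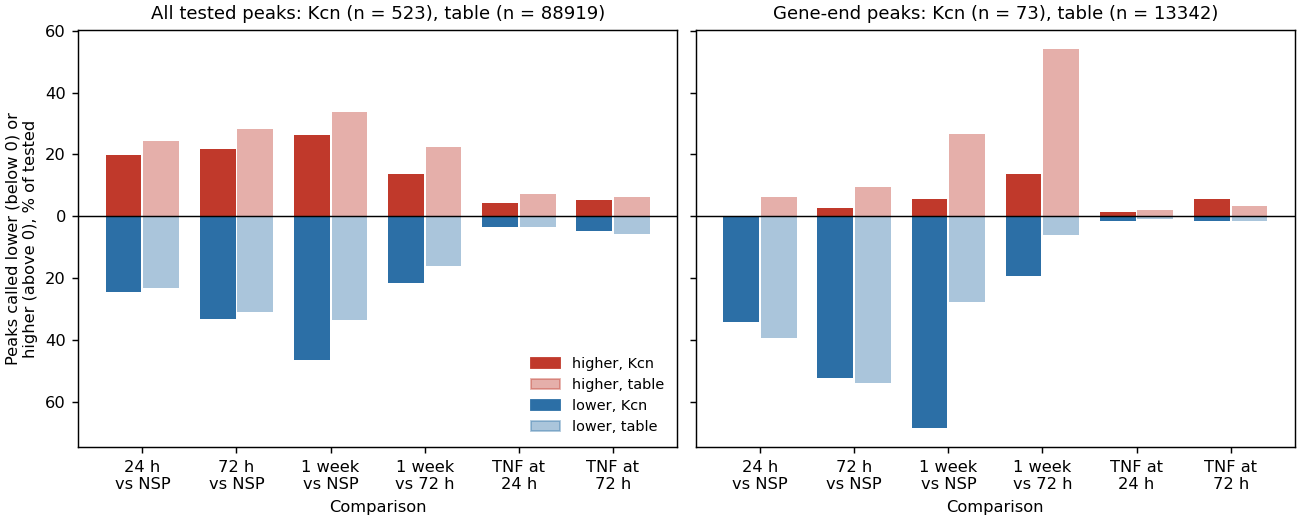
Share of tested peaks called higher (above 0) or lower (below 0) in each comparison, in percent, for Kcn peaks (dark) and for the whole table (light), over all peaks (left) and gene-end peaks (right). At 1 week against NSPs 68.5% of Kcn gene-end peaks were lower, against 27.6% of all gene-end peaks.

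Voltage-gated pore subunits had 217 peaks at 30 of 30 genes. Of the 214 tested, 50 (23.4%) rose and 105 (49.1%) fell at 1 week against NSPs, against 33.7% and 33.6% of all peaks. Their median change was -0.40. Kcnd3 encodes the pore of a rapidly inactivating A-type current, and its interior peak at chr3:105585698-105586198 lost most of its reads. It held 1472, 2060 and 2435 normalised reads in NSPs, 422, 543 and 368 at 24 h, 284, 299 and 296 at 72 h, and 227, 272, 284 and 291 at 1 week. The groups did not overlap with NSPs at any time, and the change was -2.15 ± 0.16 (SE) at 24 h and -2.86 ± 0.15 at 1 week (limma-trend, adjusted p = 5.9e-12 and 3.7e-16).

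Kcnh7, of the ether-a-go-go related channels, lost an interior peak (chr2:62807360-62807860) that held 790, 781 and 923 normalised reads in NSPs and 230, 232 and 158 at 24 h. It held 59.2, 127 and 102 at 72 h and 68.8, 49.1, 48.4 and 63.3 at 1 week, a change of -3.85 ± 0.20 from NSPs (adjusted p = 2.1e-16). Kcnq5, a pore subunit of the muscarine-sensitive M-current, lost a peak at chr1:21804945-21805445, with 665, 625 and 751 normalised reads in NSPs and 89.9, 99.0, 108 and 112 at 1 week (-2.73 ± 0.15, adjusted p = 1.1e-15). The Kcnq5 peak nearest to an end of the gene, at chr1:21961208-21961708, fell from 675 ± 33.0 in NSPs to 263 ± 24.7 at 72 h and stood at 352 ± 81.4 at 1 week.

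Other voltage-gated genes gained peaks. Kcnh8 encodes a channel related to ether-a-go-go, and its peak at chr17:52810740-52811240 held 112, 64.1 and 86.4 normalised reads in NSPs and 372, 404 and 373 at 24 h. It reached 708, 682, 702 and 590 at 1 week, all above the other groups, and the change from NSPs was 2.96 ± 0.13 (adjusted p = 1.2e-17). The same gene lost 8 of its 11 tested peaks and gained 2. Kcnh5, another ether-a-go-go channel, had a peak at chr12:74952605-74953105 with 8.18, 3.77 and 0.664 normalised reads in NSPs, the last being 1 read. It held 64.9, 63.4 and 97.3 at 24 h and 156, 186, 147 and 151 at 1 week (5.26 ± 0.33, adjusted p = 2.3e-14). Singled out after its values were seen, Kcnh5 gained 7 of 10 tested peaks and lost 1.

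Auxiliary subunits had 106 peaks at 15 of 17 genes. Of these 28 (26.4%) rose and 48 (45.3%) fell at 1 week (median -0.32), against 33.7% and 33.6% of all peaks. The genes of this group differed among themselves. Kcnab1 encodes a cytoplasmic beta subunit that speeds inactivation of voltage-gated channels, and 14 of its 22 peaks rose and 5 fell, with a median change of 1.68. Its peak at chr3:65358849-65359349 held 5.84, 7.07 and 4.65 normalised reads in NSPs and 106, 97.4 and 133 at 24 h. It held 82.4, 50.2 and 43.3 at 72 h, below every 24 h library, a difference that was not tested. At 1 week it held 152, 166, 169 and 148 (4.56 ± 0.22 from NSPs, adjusted p = 3.3e-17). At 72 h it was higher with TNF, at 122, 99.0 and 119 (0.99 ± 0.23, adjusted p = 0.00432). Kcnip1 encodes a calcium-binding subunit of A-type channels, and 14 of its 22 peaks fell and 0 rose (median -0.93). Kcnip3, of the same subunit family and also a calcium-dependent repressor of transcription, was singled out after its values were seen, with 7 of 10 peaks lower and 0 higher.

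Kcnab2 encodes a second beta subunit and showed a contrast between its own start sites. The peak at the internal start printed above (chr4:152453019-152453519) held 658, 926 and 1113 normalised reads in NSPs and 123, 183 and 94.8 at 24 h. It held 70.8, 84.9 and 94.3 at 72 h and 45.8, 53.0, 50.6 and 44.0 at 1 week, all below the lowest NSP library, and the change was -4.16 ± 0.20 (adjusted p = 3.4e-17). The peak at the outer start of the gene, at chr4:152477373-152477873, held 1075, 1197 and 1290 in NSPs and 1308, 1312, 1360 and 1360 at 1 week, a change of 0.17 ± 0.09 that was not called (adjusted p = 0.108). It had been called lower at 24 h (-0.27 ± 0.10, adjusted p = 0.0318) and 72 h (-0.33 ± 0.10, adjusted p = 0.00629). This peak also lies in the window of Nphp4. Between both starts, an interior peak went from 501 ± 60.0 in NSPs to 56.7 ± 10.7 normalised reads at 1 week. These 2 further peaks are given after their values were seen. In all, 7 of 11 Kcnab2 peaks fell and 0 rose.

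**Figure D2:**
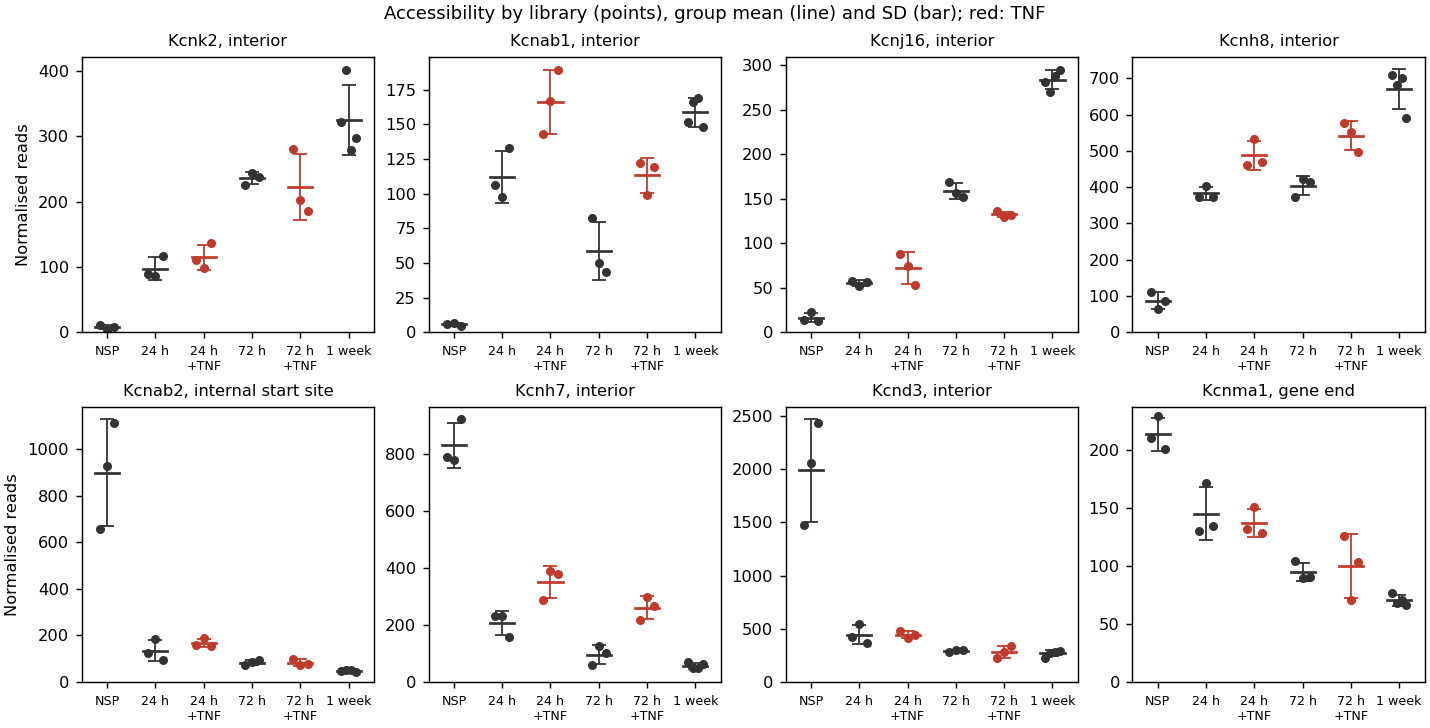
Normalised reads in each library (points) for 8 peaks, with the mean and SD of each group (line and bar), from NSPs to 1 week, and with TNF in red. In the upper row, Kcnk2, Kcnab1, Kcnj16 and Kcnh8 peaks are lowest in NSPs, and in the lower row, Kcnab2, Kcnh7, Kcnd3 and Kcnma1 peaks are highest there.

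Inward rectifiers had 50 peaks at 13 of 14 genes. Of these 15 (30%) rose and 19 (38%) fell at 1 week (median -0.22), near the 33.7% and 33.6% of all peaks. Kcnj16 encodes a subunit that works in heteromers with other glial inward rectifiers, and 3 of its 5 peaks rose and 1 fell. Its interior peak at chr11:111022000-111022500 held 14.0, 22.6 and 13.3 normalised reads in NSPs and 58.1, 51.6 and 56.7 at 24 h. It held 169, 156 and 152 at 72 h and 281, 270, 288 and 295 at 1 week, each time without overlap with the time before (4.05 ± 0.19 from NSPs, adjusted p = 3.4e-17). The step from 24 h to 72 h was not tested. The flank peak of Kcnj16 at chr11:111030289-111030789 was lower, at 20.2 ± 2.78 in NSPs and 64.0 ± 16.8 at 1 week, and was also called higher (adjusted p = 1.3e-05). The start-site peak of the same gene, given after its values were seen, went the other way, from a mean of 913 in NSPs to 644 at 1 week.

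The start site of Kcnj2, which encodes a strong inward rectifier, stood at 831 ± 82.0 normalised reads in NSPs and 819 ± 35.5 at 1 week (-0.02 ± 0.10, adjusted p = 0.892), with 653 ± 34.7 at 72 h. The lower value at 72 h was called (adjusted p = 0.00884), but the change was -0.07 with scaling to equal totals and -0.02 with a loess correction, neither called. That of Kcnj9, a G-protein-gated rectifier, stood at 127 ± 19.3 in NSPs and 139 ± 17.3 at 1 week (0.13 ± 0.18, adjusted p = 0.542).

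Calcium- or sodium-activated pore subunits had 84 peaks at 7 of 8 genes. Of the 83 tested, 25 (30.1%) rose and 33 (39.8%) fell at 1 week (median -0.28), near the 33.7% and 33.6% of all peaks. Kcnma1 encodes the large-conductance calcium-activated channel, and its peaks went both ways, with 11 of 35 higher and 15 lower. The peak at its start site, with the CpG-rich sequence shown, held 210, 229 and 201 normalised reads in NSPs and 130, 171 and 134 at 24 h. It held 104, 89.7 and 90.5 at 72 h and 76.7, 67.8, 70.4 and 66.5 at 1 week, below every earlier untreated library (-1.59 ± 0.18 from NSPs, adjusted p = 4.2e-09). An interior peak at chr14:23848511-23849011 fell from 786 ± 150 to 267 ± 30.9 at 24 h. In the same gene a peak at chr14:23678551-23679051, named after its values were seen, went from 1.75, 3.30 and 1.99 normalised reads in NSPs to 122, 135, 121 and 116 at 1 week (5.24 ± 0.29, adjusted p = 1.3e-15). The start site of Kcnn3, a small-conductance channel, held 551 ± 44.3 in NSPs, 447 ± 55.4 at 72 h and 676 ± 68.6 at 1 week. Its rise from NSPs (0.29 ± 0.11, adjusted p = 0.0242) was no longer called without NSP library 2 or without 1 week library 2 or 3 (adjusted p = 0.107, 0.0627 and 0.0648), nor with scaling to equal totals or loess (adjusted p = 0.0884 and 0.208).

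K2P channels had 54 peaks at 13 of 14 genes. Of these 16 (29.6%) rose and 26 (48.1%) fell at 1 week (median -0.50), against 33.7% and 33.6% of all peaks. Kcnk2 encodes a mechanosensitive leak channel known from astrocytes. Its interior peak at chr1:189354220-189354720 held 10.5, 4.24 and 8.64 normalised reads in NSPs, 89.9, 85.6 and 117 at 24 h, 226, 244 and 238 at 72 h, and 322, 401, 279 and 297 at 1 week. These groups did not overlap, and the change from NSPs was 3.55 ± 0.23 at 24 h and 5.27 ± 0.21 at 1 week (adjusted p = 2.5e-13 and 9.4e-19). A flank peak 2683 bp outside the gene, at chr1:189405215-189405715, held 16.9, 15.5 and 7.31 in NSPs and 240, 235, 288 and 238 at 1 week (4.21 ± 0.21, adjusted p = 1.4e-16). Not all Kcnk2 peaks shared this, since in all 3 of 10 rose and 5 fell at 1 week.

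Kcnk10, a close relative of Kcnk2, had its tested peak nearest to an end of the gene (chr12:98574575-98575075) at 381 ± 39.4 normalised reads in NSPs, 199 ± 16.8 at 24 h, 115 ± 11.3 at 72 h and 95.6 ± 11.2 at 1 week (-1.99 ± 0.16, adjusted p = 4.4e-12). A flank peak of Kcnk4, which encodes another mechanosensitive leak channel, rose from 82.0 ± 26.4 in NSPs to 455 ± 34.6 at 72 h (2.51 ± 0.16, adjusted p = 6.7e-14), though this peak is also in the windows of Bad and Gpr137. The peak at an internal start of Kcnk1 was low, at 29.7 ± 4.00 in NSPs and 51.9 ± 13.2 at 1 week (0.76 ± 0.34, adjusted p = 0.0471). That call was lost without any of NSP library 2 or 3 or 1 week library 2, 3 or 4, with adjusted p between 0.0595 and 0.13, and with scaling to equal totals (adjusted p = 0.0741).

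Silent or modifier pore subunits had 16 peaks at 8 of 10 genes. Of these 3 (18.8%) rose and 11 (68.8%) fell at 1 week (median -1.04), against 33.7% and 33.6% of all peaks. All 3 that rose were at Kcns1, and the 11 that fell were spread over the other 7 genes with peaks, named here after their values were seen. The highest Kcns1 peak, in a flank shared with Stk4, held 30.4, 8.95 and 4.65 normalised reads in NSPs and 142, 164, 161 and 137 at 1 week (3.65 ± 0.32, adjusted p = 3.1e-11). An interior peak of Kcng3 held 49.7, 79.1 and 115 in NSPs and 0.882, 4.68, 2.20 and 3.22 at 1 week, the first of these being 1 read (-4.49 ± 0.49, adjusted p = 3.8e-09).

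Seen by gene, 84 of the 86 genes had a called peak at 1 week against NSPs, and the 2 without were Kcnk9 and Kcnk18. In 44 genes some peaks rose and others fell, in 29 all called peaks fell and in 11 all rose. Of the 67 genes with at least 2 called peaks, 8 had all of them higher and 15 all lower. Since 33.7% of all tested peaks rose and 33.6% fell in this comparison, calls are common at any gene with several peaks. The same counts were not made for other genes, so these do not set the Kcn genes apart. The map of the 6 genes with most peaks shows both directions side by side within Kcnma1, Kcnd3, Kcnab1, Kcnn3 and Kcnq5, and only falls among the called peaks of Kcnip1.

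**Figure D3:**
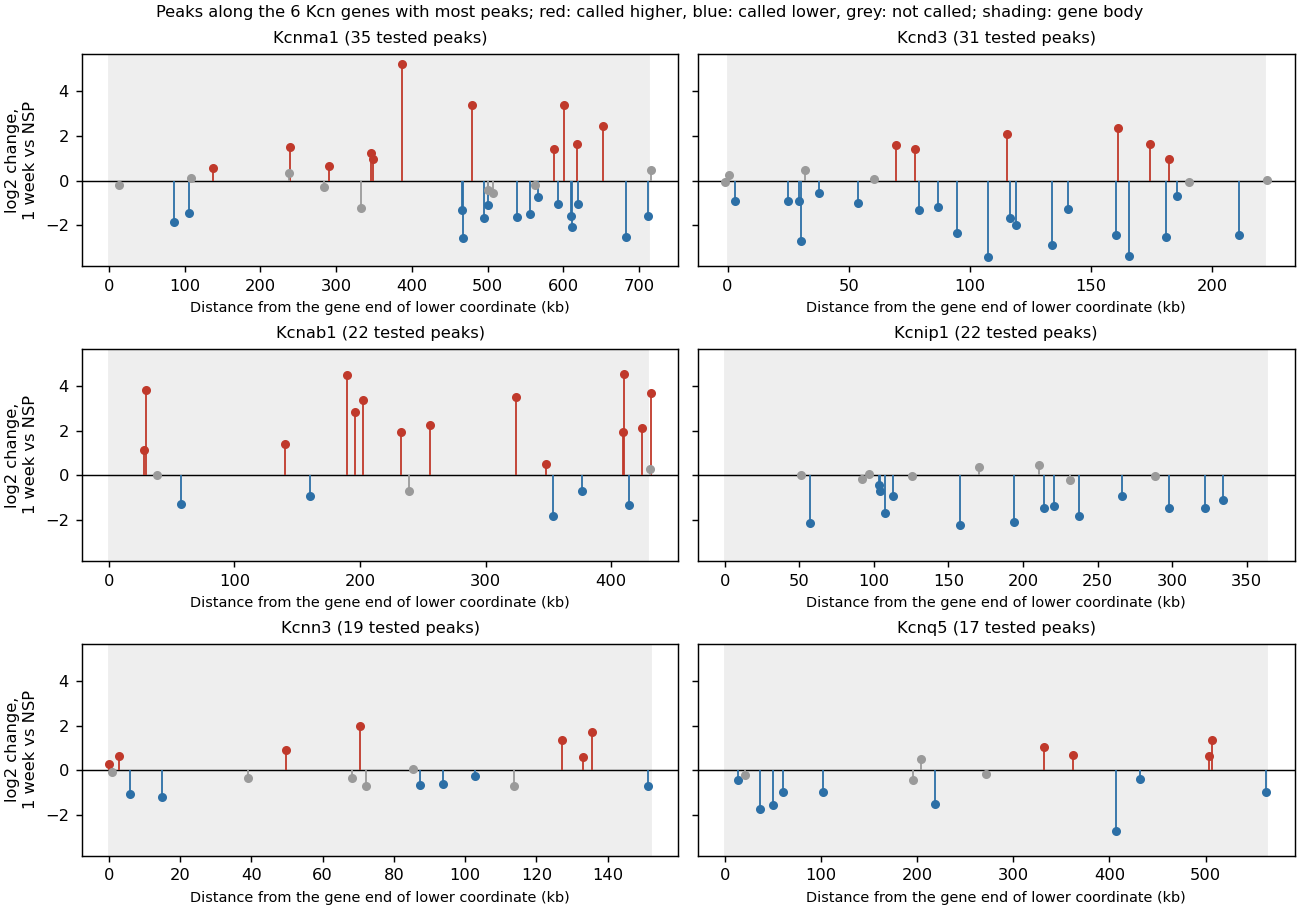
Change of each tested peak at 1 week against NSPs, as log2 change, by distance in kb from the gene end of lower coordinate, for the 6 Kcn genes with most peaks (red called higher, blue called lower, grey not called, shading the gene body). Of the Kcnab1 peaks 14 of 22 rose, whereas 14 of the 22 Kcnip1 peaks fell and 0 rose.

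From 72 h to 1 week, a comparison within the tagged libraries, 72 Kcn peaks (13.8%) rose and 112 (21.4%) fell, against 22.5% and 16.2% of all peaks. This split depended on the scaling, with 28 up and 220 down when libraries were scaled to equal totals, which moved the median of all peaks from 0.02 to -0.31, and 53 up and 141 down with edgeR. With the loess correction 55 rose and 68 fell. Of the 88919 tested peaks, 7968 rose and 30047 fell with equal totals. With edgeR these were 15888 and 17801, and with loess 11572 and 10295. At gene ends 10 of 73 Kcn peaks rose and 14 fell, where 54% of all gene-end peaks rose and 6.12% fell. With equal totals 0 Kcn gene ends rose and 32 (43.8%) fell, against 20.9% and 16% of all gene ends, and with loess 3 (4.11%) rose and 11 (15.1%) fell, against 9.65% and 6.54%. The interior Kcnd3 peak at chr3:105566831-105567331 held 66.9, 64.6 and 65.0 normalised reads at 72 h and 229, 245, 345 and 179 at 1 week (1.87 ± 0.23, adjusted p = 7.3e-07). An interior Kcnn2 peak rose from 792 ± 55.2 to 1376 ± 148. Flank peaks of Kcnk4 and Kcnh6, both also in windows of other genes, rose from 1276 ± 92.0 to 2075 ± 119 and from 1236 ± 69.6 to 1948 ± 45.3. The rises at Kcnn2, Kcnk4 and Kcnh6 were reduced to 0.25, 0.04 and 0.02 by the loess correction and were no longer called.

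Falls from 72 h to 1 week included an interior peak of Kcnc1, the pore of a fast delayed rectifier, at chr7:46433691-46434191. It held 60.5, 61.0 and 80.3 normalised reads at 72 h and 22.0, 13.2, 26.4 and 21.4 at 1 week (-1.67 ± 0.25, adjusted p = 9.4e-06). An interior Kcnj12 peak fell from 85.5 ± 25.3 to 36.0 ± 10.6. A flank peak of Kcnj11, the pore of ATP-sensitive channels (shared with Abcc8, its regulatory subunit), fell from 109 ± 3.87 to 45.4 ± 17.1. Of the 104 Kcn peaks that rose by 24 h, 26 (25%) rose again from 72 h to 1 week and 10 (9.62%) fell, against 31.9% and 8.42% of all peaks that rose by 24 h. Of the 128 that fell by 24 h, 40 (31.2%) fell again and 19 (14.8%) rose, against 22.9% and 27.7% of all peaks that fell by 24 h.

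TNF changed few Kcn peaks. At 24 h, 22 (4.21%) were higher with TNF and 18 (3.44%) lower, where 7.06% and 3.53% of all peaks were. At 72 h, 27 (5.16%) were higher and 25 (4.78%) lower, where 6.24% and 5.55% were. With scaling to equal totals the split at 72 h was 20 higher and 38 lower, and the median of all peaks moved from 0.03 to -0.05. Of the 88919 tested peaks 4223 were then higher and 6610 lower. Single libraries moved these counts and those over all peaks. With 1 library left out, 3860 to 5629 of all tested peaks were higher and 1525 to 2502 lower at 24 h. At 72 h 2829 to 3618 were lower. At 24 h, 14 and 13 Kcn peaks were higher without TNF library 2 and 3. There, 8 and 10 Kcn peaks were lower without untreated library 1 and 2, and 10, 10 and 8 without TNF library 1, 2 and 3. At 72 h, 12 and 14 Kcn peaks were lower without untreated library 1 and 3 and 13 without TNF library 3. With only the 2 groups of a comparison in the fit, 39 Kcn peaks were higher and 33 lower at 24 h, and 47 and 46 at 72 h. Over all tested peaks these were 8467 and 5750 at 24 h, and 8739 and 7686 at 72 h.

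Of the peaks higher with TNF at both times, 2 lay at calcium-activated channels. An interior peak of Kcnn3, 2764 bp inside the gene at chr3:89522678-89523178, held 58.1, 76.7 and 61.6 normalised reads at 24 h and 223, 269 and 271 with TNF. At 72 h it held 115, 110 and 106 without and 313, 375 and 330 with TNF. The groups did not overlap at either time, and the change was 1.95 ± 0.17 at 24 h and 1.61 ± 0.17 at 72 h (adjusted p = 1.0e-08 and 2.6e-07). Without TNF the peak stood at 113, 110, 94.6 and 123 at 1 week. The start site of the same gene changed by -0.17 ± 0.12 and 0.17 ± 0.12 with TNF, which was not called (adjusted p = 0.479 and 0.417).

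Kcnn4 encodes the intermediate-conductance channel, known from activated lymphocytes and reactive glia. Its flank peak at chr7:24387229-24387729 held 131, 125 and 113 normalised reads at 24 h and 361, 363 and 401 with TNF, and 129, 111 and 135 against 350, 349 and 390 at 72 h. This was a change of 1.60 ± 0.22 and 1.53 ± 0.22 (adjusted p = 9.7e-06 and 1.7e-05), again without overlap. The peak at the end of Kcnn4, at chr7:24384818-24385318, stood at 62.7 ± 12.5 without and 50.3 ± 10.5 with TNF at 24 h (adjusted p = 0.583).

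Of the other peaks higher at both times, the Kcnk2 flank peak held 46.7, 57.5 and 50.5 normalised reads at 24 h and 142, 137 and 98.7 with TNF. At 72 h it held 121, 98.1 and 122 without and 282, 273 and 242 with TNF (1.22 ± 0.23, adjusted p = 4.7e-04), a range that overlaps that of untreated cells at 1 week. The interior Kcnk2 peak that rose with differentiation was not called with TNF, at 222 ± 50.5 against 236 ± 8.96 at 72 h (adjusted p = 0.817). The Kcnh7 peak that fell from NSPs was higher with TNF, with 59.2, 127 and 102 against 218, 297 and 268 at 72 h (1.49 ± 0.21, adjusted p = 1.6e-05). A flank peak of Kcnab3, another beta subunit, went from 33.7 ± 13.5 to 109 ± 9.00 at 24 h, and an interior Kcnh5 peak from 10.9 ± 4.69 to 51.1 ± 10.7.

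Peaks lower with TNF at both times included flanks of 2 auxiliary subunits. The flank peak of Kcnmb4, which encodes a beta subunit of the large-conductance channel, held 384, 432 and 374 normalised reads at 24 h and a mean of 217 ± 10.1 with TNF, and 394, 331 and 334 against 161, 174 and 131 at 72 h (-1.18 ± 0.18, adjusted p = 3.2e-05). That of Kcne4, a single-pass subunit that inhibits several voltage-gated channels, held 77.2, 111 and 96.9 at 72 h and 29.5, 31.0 and 27.6 with TNF (-1.65 ± 0.26, adjusted p = 5.9e-05). At 1 week the untreated cells held 520, 532, 605 and 605 at the Kcnmb4 peak, above every other library, and 114, 111, 108 and 118 at the Kcne4 peak, overlapping the range at 72 h. The interior Kcnd2 peak at chr6:21697565-21698065, of the other main A-type pore subunit, held 241, 285 and 251 at 24 h and 134, 135 and 98.7 with TNF (-1.09 ± 0.16, adjusted p = 3.3e-05). A Kcnip4 peak, at a gene for another subunit of A-type channels, went from 181 ± 16.2 to 85.9 ± 4.00 at 24 h. At 72 h, a flank peak of Kcnh5 held 92.6, 88.5 and 94.3 without and 34.0, 10.3 and 16.8 with TNF (-2.27 ± 0.40, adjusted p = 2.8e-04), and an interior Kcnq5 peak went from 74.1 ± 9.70 to 24.0 ± 4.37.

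**Figure D4:**
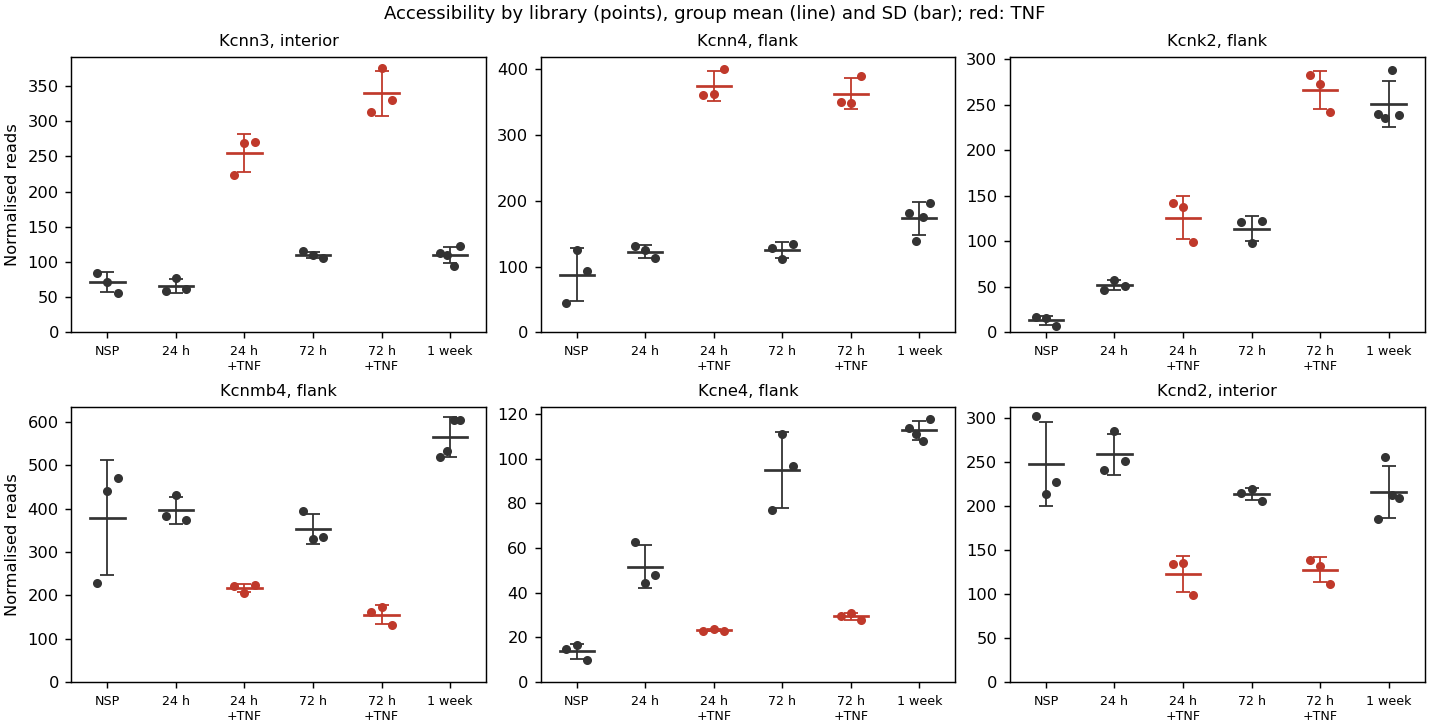
Normalised reads in each library (points) for 6 peaks called with TNF at both times, with the mean and SD of each group (line and bar), and TNF in red. Peaks of Kcnn3, Kcnn4 and Kcnk2 are higher with TNF and those of Kcnmb4, Kcne4 and Kcnd2 lower, without overlap at either time.

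The TNF responses at the 2 times came from separate libraries and could be set side by side. Of the 77 Kcn peaks called at either time, 15 were called at both, which is 37.5% of the 40 called at 24 h and 28.8% of the 52 called at 72 h. Over all peaks the shares were 52.1% and 46.8%. Of these 15, 8 were higher (at Kcnn3, Kcnn4, Kcnk2, Kcnk10, Kcnh5, Kcnh7, Kcnab3 and Kcnq5) and 7 lower, among them those of Kcnmb4, Kcne4 and Kcnd2. All 77 changed in the same direction at both times, against 93.9% of the 14992 peaks of the table called at either. Over all 523 tested Kcn peaks, called or not, 68.1% had the same sign at both times, and over all tested peaks 65.9%. A test of the difference between the responses called 0 Kcn peaks as higher and 0 as lower, and 0 and 1 of all tested peaks (0% and 0.00112%). At an unadjusted p under 0.05 the Kcn peaks numbered 15 in each direction, and edgeR and DESeq2 also called 0. In the same TNF libraries the endothelial marker list (3 of 4 genes, 9 peaks, none at Cldn5) went from 1223 to 1405 normalised reads to 1821 to 2069 at 24 h and from 1206 to 1213 to 1941 to 2222 at 72 h. The oligodendrocyte list was lower with TNF at both times, from 3575 to 3654 without to 3263 to 3367 with TNF at 24 h and from 3563 to 3697 to 3141 to 3371 at 72 h. The list of NSPs and proliferation went from 6045 to 6626 to 7257 to 7667 at 72 h. Without overlap, the neuron list was also higher with TNF at both times (6056 to 6237 against 6253 to 6489, and 6397 to 6642 against 6656 to 7271), the astrocyte list higher at 72 h (11425 to 11988 against 12027 to 12329) and the fibroblast and mural list lower at 24 h (1288 to 1345 against 1187 to 1253). The part of these cell types in the Kcn responses was not tested.

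**Figure D5:**
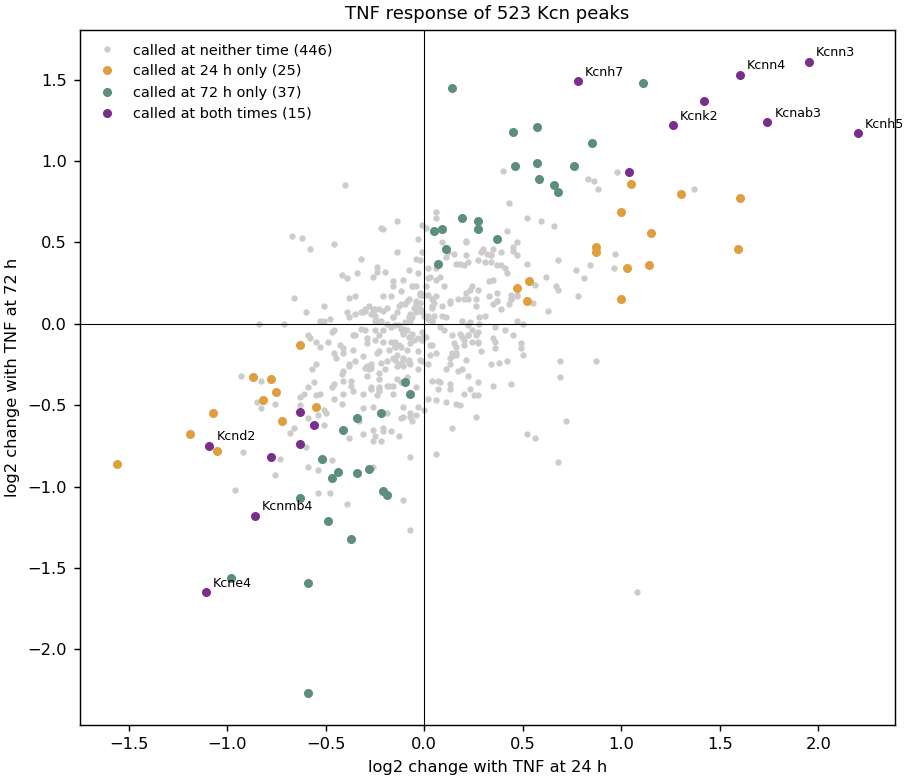
Log2 change with TNF at 24 h (horizontal) and at 72 h (vertical) of the 523 tested Kcn peaks, coloured by the times at which they were called with the gene given for the 9 peaks called at both times whose values are described above. The 15 peaks called at both times lie in the lower left (7) and upper right (8) parts of the plot.

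By position, TNF raised 1 of 73 gene-end Kcn peaks (1.37%) and lowered 1 at 24 h, against 1.97% and 0.854% of all gene-end peaks. At 72 h it raised 4 (5.48%) and lowered 1 (1.37%), against 3.29% and 1.45%. Of the 38 start-site peaks 1 was called with TNF, as higher, at 72 h, and the share over all start-site peaks was not computed. Families had few calls each. At 24 h, where 7.06% of all peaks were higher and 3.53% lower, these were 12 higher and 9 lower of 214 voltage-gated peaks, 3 and 6 of 106 auxiliary, 0 and 1 of 50 inward rectifier and 3 and 0 of 54 K2P peaks.

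Partners of these channels were read by the same windows, among them the Na,K-ATPase subunits, the cation chloride cotransporters, the sulfonylurea receptors, the Hcn pacemaker channels and the Dpp accessory proteins. All 26 genes had peaks, 148 in all and 146 tested. At 24 h against NSPs 42 (28.8%) rose and 24 (16.4%) fell, against 24.2% and 23.0% of all peaks. At 72 h 40 (27.4%) rose and 52 (35.6%) fell, against 28.3% and 30.9%, and at 1 week 45 (30.8%) and 58 (39.7%), against 33.7% and 33.6%. With TNF 10 (6.85%) were higher and 10 lower at 24 h, against 7.06% and 3.53% of all peaks, and 8 (5.48%) and 11 (7.53%) at 72 h, against 6.24% and 5.55%. The summed level of the partner peaks was 25439 ± 415 normalised reads in NSPs and 25646 ± 804 at 1 week, where that of the Kcn peaks was lower at 1 week.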

How the data were processed

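ATAC-seq libraries of 6 groups were compared. According to the labels and the methods of the study, the authors checked reads with FastQC, trimmed them with Trim Galore, aligned them to mm10 with Bowtie2, handled alignments with SAMtools, called peaks with MACS2, removed peaks in blacklisted regions and annotated the rest with HOMER. Versions, and how the table was normalised, are not given in the sources used here. The deposited table holds normalised reads, a signal of 90154 peaks in 19 libraries. The deposited values were whole multiples of what 1 read is worth in 100.0% of cases (tolerance 0.02), and 1 read was worth 0.4711 to 2.2006 normalised reads, so reads were recovered. Among values of 2 to 20 recovered reads 61.78% were odd, an excess whose origin is not known. The unit of 1 read was the smallest value of each library, and levels given as 1 read and the edgeR and DESeq2 counts rest on it. The library with fewest reads gives the coarsest values, and intervals from 3 or 4 libraries are wide.

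Values were tested as log2(value + 1) with limma-trend (limma 3.58.1, R 4.3.3), in 1 fit of all 19 libraries with a mean per group, over the 88919 peaks that passed the filter of edgeR 4.0.16 (minimum count 10), leaving out 1235. A fold change on this scale understates the change of low peaks. The alternatives were scaling to equal totals, a loess correction against peak height, no filter, a pseudocount of 8, only the compared groups, the replicate number as a block, each library left out, and edgeR and DESeq2 1.42.0 on recovered reads. The steps were tested on simulated data. Genes and promoters are those of RefSeq on GRCm38.p6, the assembly behind mm10. No genome sequence was used here, so exons, introns and UTRs were not assigned.

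The genes, lists and rules were chosen with earlier results of these data known. Named peaks were, in each comparison and direction, the 4 Kcn peaks with the smallest p among calls without overlap between groups, at most 1 a gene. To these came the tested peak nearest to an end of 10 genes of glial channels, and the genes with most peaks. Some items that these rules chose are not reported here.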

Additional observations from a re-analysis of the deposited data

Results flagged for a closer look

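The 1 week groups of 39 named peaks were each searched for a library far from the other 3, and 2 stood apart by Dixon's criterion for 4 libraries. Chance marks about 1 in 20 such groups. At the flank peak of Kcnk2, 1 week library 3 held 288 normalised reads and the others 235 to 240, a gap of 0.902 of the range. At the flank peak of Kcnj11, 1 week library 4 held 70.8 and the others 33.0 to 39.0, a gap of 0.842 of the range. Library 3 was the shallowest of the series, and both peaks kept their direction against 72 h in every library.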

How the results depend on the processing

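With scaling to equal totals, 77 Kcn peaks fell at 24 h, 38 were lower with TNF at 72 h, and 28 rose and 220 fell from 72 h to 1 week; the loess correction left 68 falls in the last comparison. With only the compared groups fitted, TNF raised 39 peaks and lowered 33 at 24 h, and raised 47 and lowered 46 at 72 h. With 1 library left out, TNF raised 13 to 19 peaks and lowered 8 to 13 at 24 h, and lowered 12 to 22 at 72 h. The counts over all peaks moved as well, as given above. The cause of these differences was not tested. The start site of Kcnj2 rose by 0.33 from 72 h to 1 week, but changed by -0.02 with equal totals and -0.15 with loess. Among all changes of named peaks, 651 of 678 with a library left out and 816 of 856 under other settings kept their direction and their side of the threshold; those of Kcnj2 were the 2 that reversed.

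Same-numbered libraries did not deviate together in every pair (correlations -0.031 to 0.106), so the replicate numbers were not taken to pair the libraries. For 72 h with TNF the numbers in the library names differ from the replicate numbers. This check and the replicate block therefore did not match those names. Matched by name, libraries with and without TNF at 72 h correlated at 0.031 and 0.023. Whether the libraries are paired is not settled by this. With the replicate block TNF raised 24 peaks and lowered 16 at 24 h, 220 fell at 1 week against NSPs, and 63 rose and 99 fell from 72 h to 1 week. Over all tested peaks these counts were 6184 and 3004, 28673, and 18482 and 12821. Counts at gene ends under the alternatives were chosen after seeing the data. Peaks near 1 read, such as those of Kcnh5 and Kcng3 at their lowest, give changes that depend on the pseudocount.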
